A study of Mus musculus with 12 samples.

Results

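The comparison of newborn forebrain carrying active Smoothened alone (GS) with Cre-negative forebrain (Control) rests on 6 of the 12 arrays of the series, 3 per genotype. The arrays were chosen by the genotype name in their titles, and 14195 genes were tested on them. All mice were of postnatal day 0, and RNA came from whole forebrain, so the samples are mixtures of cell types. GS mice were hGFAP-cre::SmoM2Fl/+. Control mice were Ctnnb1(ex3)Fl/+SmoM2Fl/+ with no Cre, so they carried the silent SmoM2 allele as well as a floxed Ctnnb1 allele that GS mice lacked. Effects of SmoM2, of Cre itself and of the unrecombined Ctnnb1 allele therefore cannot be told apart in GS against Control. The other genotypes were GB, hGFAP-cre::Ctnnb1(ex3)Fl/+, and GBS, hGFAP-cre::Ctnnb1(ex3)Fl/+SmoM2Fl/+, which formed tumors, and each also had 3 arrays. The hGFAP-cre transgene places Cre under a human GFAP promoter whose activity begins in radial glia, the stem cells of the embryonic forebrain, so only those cells and their progeny recombine. The labels call the arrays biological replicates, and the sources used here do not give how many mice went into each RNA sample.

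Hedgehog ligands bind the receptor Patched, which in their absence holds the membrane protein Smoothened inactive at the primary cilium. Once Smoothened is active, GLI transcription factors switch on target genes, and Ptch1, Hhip and Gli1 are themselves among the targets, which makes them the usual readouts of the pathway. In the embryonic forebrain the pathway sets ventral identity and keeps progenitors dividing. SmoM2 is a mutant Smoothened that signals without ligand.

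Values are log2 of probe set signal after RMA, a method that corrects background, normalizes arrays against each other and summarises probes. A difference of 1 is therefore a doubling of signal. A gene was called at a Benjamini-Hochberg adjusted p under 0.05 in a limma model of all 12 arrays, and unadjusted p-values come from the same model. Errors beside a log2 change are standard errors, and errors beside a mean are standard deviations with n = 3.

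The arrays of each genotype were not alike. GS replicates 1 and 2 correlated at 0.986 across genes, whereas GS replicate 3 correlated at 0.903 and 0.916 with them and at 0.956 to 0.960 with the Control arrays. GB replicate 2 stood apart from all others on the first principal component, which held 66.7% of the variance, and its spread enters the shared error of the model. The RNA of 2 of the 3 GS arrays was female by Xist (10.83 and 10.28 against 4.87 in GS replicate 1), and all 3 Control arrays were male. The forebrain transcription factor genes Emx1, Lhx2 and Dlx1 had mean array percentiles of 92.0, 92.4 and 88.1 on the 6 arrays, and Dlx2 and Emx2 of 55.6 and 34.9. Among genes of other brain regions, Otp of the hypothalamus was at 84.0 and Pax2 of the midbrain and hindbrain at 73.3, so these levels alone do not set forebrain apart. The choroid plexus gene Ttr was high on GS replicates 1 and 2 (9.92 and 9.49) and on Control replicate 3 (9.96), and low on the other 3 arrays (5.90 to 6.08). Other choroid plexus genes did not follow this split, with Folr1 at 6.4, 6.76 and 6.83 in GS and 6.98, 6.79 and 7.04 in Control and Aqp1 at 6.61, 6.76 and 6.85 against 7.0, 6.95 and 6.96.

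In GS against Control, 3 genes were called higher, which is 0.0211% of the genes tested, and 0 were called lower. They were Ptch1, Prm1 and Gm10561. At an unadjusted p below 0.05 stood 839 genes (5.91%), of which 508 (3.58%) were higher and 331 (2.33%) lower. The GS and Control arrays did not overlap in 2488 genes (17.5%), with GS above in 1149 (8.09%) and below in 1339 (9.43%).

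Ptch1 encodes the hedgehog receptor. Its values were 8.57, 8.62 and 8.46 on the GS arrays and 7.17, 7.11 and 7.08 on the Control arrays. The GS arrays lay within a narrow band far above the Control arrays. The rise was 1.43 ± 0.118 on the log2 scale, a 2.69-fold higher signal, with a 95% confidence interval of 1.17 to 1.69 and an adjusted p of 0.00164. Ptch1 was called under all 25 alternative settings, with changes between 1.36 and 1.47.

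Prm1 encodes protamine 1, a protein that packs DNA in sperm. It read 9.66, 9.13 and 9.40 on the GS arrays and 7.37, 7.18 and 7.38 on the Control arrays. All GS arrays were well above the Control arrays. The rise was 2.09 ± 0.203 (4.25-fold, adjusted p = 0.00437), and it too was called under all 25 alternatives. Among other spermatid genes Prm2 differed by -0.08 and Prm3 by -0.25, and no spermatid gene other than Prm1 passed an unadjusted p under 0.05 among the 8 tested. Prm1 was also bright in the other genotypes with Cre, at 8.57 ± 0.124 in GB and 8.49 ± 0.452 in GBS. Whether its probe set reads only RNA of the Prm1 gene was not tested.

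Gm10561 is a long noncoding RNA gene in RefSeq. It read 6.61, 6.30 and 6.62 on the GS arrays and 4.76, 4.79 and 4.86 on the Control arrays. Both groups were tight and far apart. The Control values lay below the medians of silent receptor genes on the same arrays (5.17, 5.12 and 5.23) and the gene passed the filter on dim genes only through the brighter genotypes, so no fold is given. The measured difference of means was 1.71 ± 0.196 (adjusted p = 0.0142). With the replicate number as a block in the 12 arrays, its adjusted p was 0.119, so the call was lost, while Ptch1 and Prm1 both kept theirs (adjusted p = 0.00961 each). With sex as a covariate the adjusted p was 0.212, and this call was lost as well. Leaving out GS replicate 1 or 3 or any Control array also lost it, with adjusted p-values of 0.0729 to 0.134, so that it held under 17 of 24 alternatives.

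**Figure D1:**
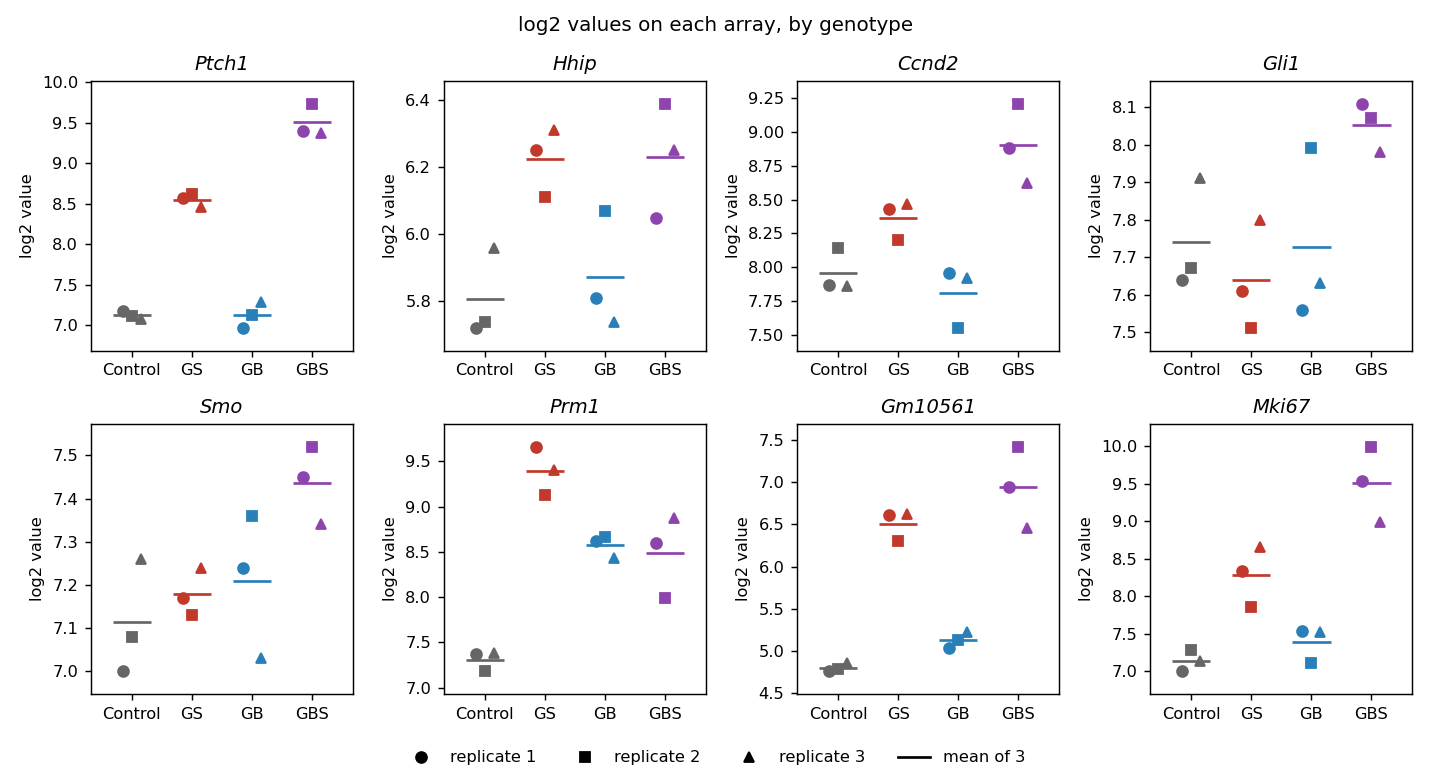
log2 values of 8 genes on each of the 12 arrays (y axis) by genotype (x axis), with symbols for replicate numbers and lines for means of 3. Ptch1, Prm1 and Gm10561 were higher on every GS array than on every Control array, and the largest of these differences was that of Prm1, while Gli1 and Smo overlapped between GS and Control.

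The hedgehog pathway was described in 3 lists by role. Of 13 tested ligands, receptors and co-receptors, 1 (Ptch1) was called and 2 were higher at an unadjusted p under 0.05. Beside these stand 0.0211% and 3.58% of all genes tested. The median change of the list was -0.03 against -0.02 over all genes tested. Shh, whose product is the main forebrain ligand, differed by -0.09 (95% interval -0.38 to 0.21), and Ihh, a related ligand, by -0.19 (-0.42 to 0.05). The co-receptors that help present the ligand had small differences, with Boc at -0.10 ± 0.116, Cdon at -0.08 ± 0.130 and Gas1 at -0.03 ± 0.121. Hhat, the enzyme that attaches a lipid to the ligands, lay below the filter on dim genes.

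Smo read 7.17, 7.13 and 7.24 on the GS arrays and 7.0, 7.08 and 7.26 on the Control arrays. These values overlapped. The difference was 0.07 ± 0.106 (95% interval -0.17 to 0.30, adjusted p = 0.752). Whether the Smo probe set reads RNA from the SmoM2 allele was not tested.

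Hhip encodes a membrane protein that binds hedgehog ligands and limits their range. It read 6.25, 6.11 and 6.31 on the GS arrays and 5.72, 5.74 and 5.96 on the Control arrays. The groups did not overlap, but Control replicate 3 came near the lowest GS array. These Control values were near those of Hhat (5.79, 5.75 and 5.93), which lay below the filter on dim genes. Hhip may thus have passed that filter only through the brighter genotypes. The difference of Hhip was 0.42 ± 0.122, with an unadjusted p of 0.00592 and an adjusted p of 0.645, so it was not called. It was called under 3 of 24 alternatives.

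Between receptor and target genes, none of 17 tested signal transducers passed an unadjusted p under 0.05, and their median change was 0.04. The GLI transcription factors had differences near 0. Gli1 read 7.61, 7.51 and 7.80 on the GS arrays and 7.64, 7.67 and 7.91 on the Control arrays, so that the groups overlapped and the GS mean was the lower by a small margin. Its difference was -0.10 ± 0.130, with a 95% interval of -0.38 to 0.19 that lies wholly below the interval of Ptch1. Gli2 differed by -0.05 ± 0.0853 and Gli3, which acts mainly as a repressor, by -0.05 ± 0.102. The transducer with the lowest p was Gpr161, a ciliary receptor that restrains the pathway, at 0.21 ± 0.0997 (unadjusted p = 0.0634).

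Among 21 tested hedgehog target genes, 1 was called, beside 0.0211% of all genes tested. At an unadjusted p under 0.05, 4 were higher and 0 were lower, beside 3.58% and 2.33% of all genes, and the median change was -0.01. The 4 were Ptch1, Hhip, Mtss1 and Ccnd2. Ccnd2, which encodes a D-type cyclin that moves progenitors through G1, read 8.43, 8.20 and 8.47 on the GS arrays and 7.87, 8.14 and 7.86 on the Control arrays. All GS arrays were higher, though Control replicate 2 lay just below GS replicate 2. Its difference was 0.41 ± 0.165 (unadjusted p = 0.0305, adjusted p = 0.645). Mtss1, a regulator of the actin skeleton that also works with GLI proteins, differed by 0.33 ± 0.123 with the same adjusted p. The other D-type cyclin of the list and the MYC family target differed little, with Ccnd1 at -0.01 ± 0.0881 and Mycn at 0.14 ± 0.0927.

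**Figure D2:**
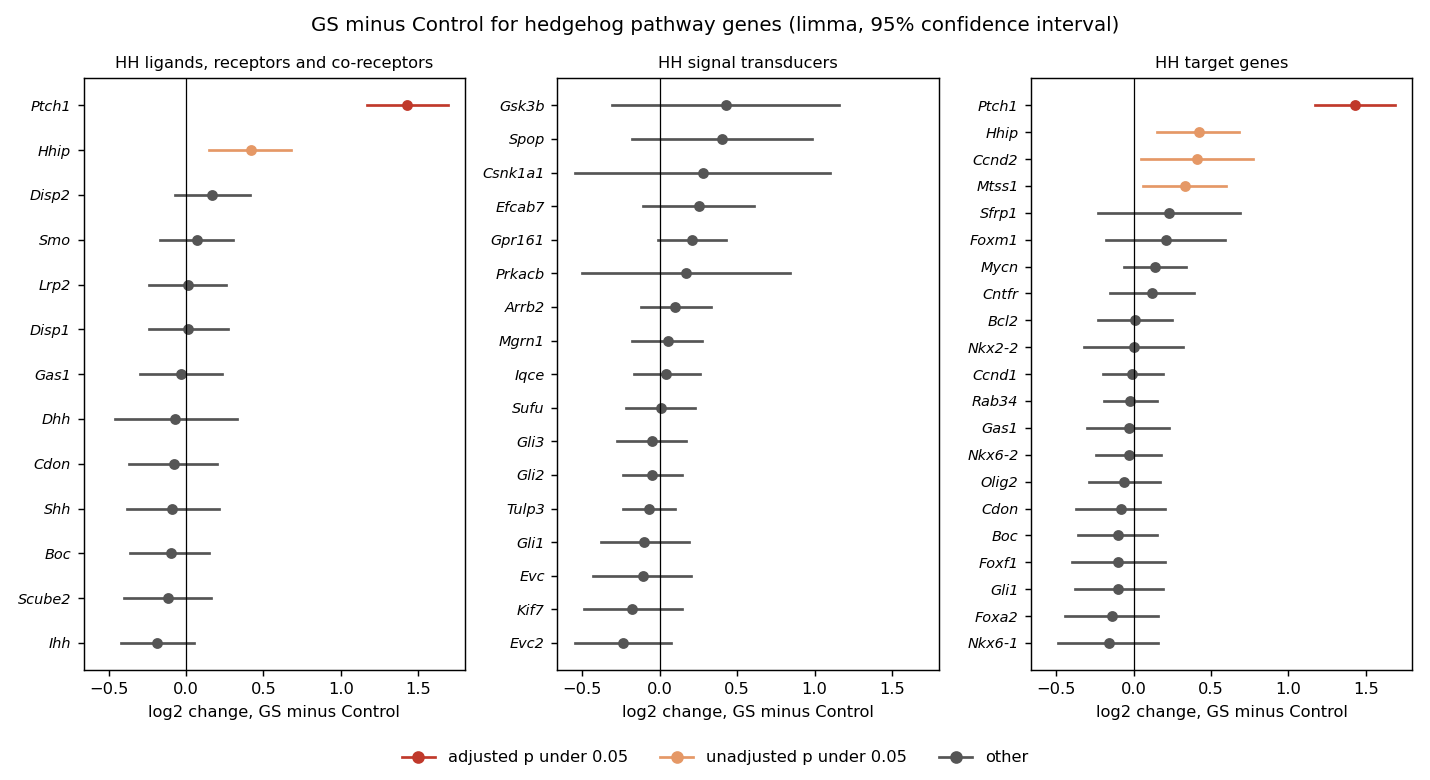
log2 difference of GS minus Control (x axis) with its 95% confidence interval for every tested member (y axis) of the 3 hedgehog lists, with genes that are in 2 lists shown in both. Ptch1 at 1.43 stands alone, Hhip, Ccnd2 and Mtss1 lie between 0.33 and 0.42, and the intervals of the other members cross 0.

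Of the 51 lists, mitosis had the largest share of tested members higher in GS at an unadjusted p below 0.05. Of 26 listed genes, 22 were tested, and 10 were higher at an unadjusted p under 0.05 and 0 lower, beside 3.58% of all genes tested. In 14 of the 22 all GS arrays lay above all Control arrays, beside 8.09% of all genes tested, and the median change was 0.42 against -0.02. None was called at an adjusted p under 0.05. The 4 untested members were Bub1b, Kif20a and Hmmr, below the filter, and Ccnb1, which was not analysed here.

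Mki67 encodes the Ki-67 protein that marks cycling cells. It read 8.34, 7.86 and 8.66 on the GS arrays and 7.0, 7.29 and 7.14 on the Control arrays. The lowest GS array was above the highest Control array, and GS replicate 3, the array that otherwise resembled the Controls, was the highest of all. The difference was 1.15 ± 0.255 (2.21-fold, unadjusted p = 0.000919, adjusted p = 0.645).

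Top2a, the topoisomerase that untangles chromosomes before they separate, read 8.58, 8.16 and 8.71 against 7.12, 7.46 and 7.07. Kif11, a motor of the mitotic spindle, read 7.69, 7.14 and 7.78 against 6.19, 6.57 and 6.21. Both genes showed the order seen in Mki67, with GS replicate 3 highest and GS replicate 2 lowest among the GS arrays. The differences were 1.27 ± 0.296 for Top2a and 1.21 ± 0.231 for Kif11, with adjusted p-values of 0.645 and 0.495. Smc4, a condensin subunit outside the list, was 1.16 ± 0.449 higher. Ccna2, a cyclin of S phase and early mitosis, was 0.79 ± 0.206 higher. Members that stayed near 0 were Cdk1 at 0.02, Plk1 at -0.01, Aurka at -0.05 and Cdc20 at -0.08, all regulators of mitotic entry or exit.

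The promoter windows of the 3 mitosis genes with the largest changes are shown because these genes had the same order of values over the GS arrays. Each is the sequence of 150 bases just before the annotated start, from the RefSeq tables of build GRCm38.p6, written 5′ to 3′ on the gene's own strand. Capitals mark TTTGAA, the cell cycle homology region motif, and CCAAT, a promoter motif. Each was searched on both strands (as TTCAAA and ATTGG on the other strand), and the motifs share no letters here. Top2a lies on chromosome 11 (chr11:99024190-99024339, minus strand), Mki67 on chromosome 7 (chr7:135716380-135716529, minus strand) and Kif11 on chromosome 19 (chr19:37376232-37376381, plus strand).
Top2a: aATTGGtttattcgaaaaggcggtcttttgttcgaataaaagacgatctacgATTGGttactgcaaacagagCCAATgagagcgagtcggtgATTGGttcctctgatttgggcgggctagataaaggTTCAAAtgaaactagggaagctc
Mki67: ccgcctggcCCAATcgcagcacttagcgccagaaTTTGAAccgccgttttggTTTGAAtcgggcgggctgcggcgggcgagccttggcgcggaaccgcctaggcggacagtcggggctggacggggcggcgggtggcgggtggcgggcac
Kif11: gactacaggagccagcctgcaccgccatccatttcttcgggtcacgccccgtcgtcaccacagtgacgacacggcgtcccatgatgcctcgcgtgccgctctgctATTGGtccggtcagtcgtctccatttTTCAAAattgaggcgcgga

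In the 250 bases before the start, 6 of 19 tested mitosis genes with a window held TTTGAA (31.6%) and 14 held CCAAT (73.7%). Over the 11253 tested genes with a window the shares were 13.1% and 38.7%. A high CCAAT share was not particular to the mitosis list. CCAAT was in 61.5% of radial glia genes and 61.9% of DNA replication genes with a window, and TTTGAA in 7.69% and 9.52%. These are counts of letters, and no binding was measured. The motif GACCACCCA, known to be bound by GLI proteins, was in the windows of 0 of 13 tested hedgehog target genes and of 0.196% of all tested genes with a window.

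Of 24 tested DNA replication genes, 1 was higher at an unadjusted p under 0.05 and 1 lower, beside 3.58% and 2.33% of all genes. The median change of the list was 0.10. Pola1, the catalytic subunit of the primase polymerase, was 0.63 ± 0.230 higher, and Mcm7, a subunit of the replicative helicase, was lower by 0.33 on average (-0.33 ± 0.126). Among 13 tested D-type cyclins, their kinases and inhibitors, 4 were higher at an unadjusted p under 0.05 and 0 lower, beside the same shares of all genes. The median change there was 0.15. Cdk6, a partner kinase of D-type cyclins, read 8.07, 7.75 and 7.81 on the GS arrays and 7.11, 7.02 and 7.04 on the Control arrays. The groups were clearly apart on that gene, with a difference of 0.82 ± 0.162 (unadjusted p = 0.00038, adjusted p = 0.54). The inhibitor Cdkn1b was 0.30 ± 0.0862 higher and the pocket protein gene Rbl1 0.42 ± 0.170 higher.

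Radial glia genes formed the other progenitor list with higher values. Of 17 listed genes, 15 were tested, 4 were higher at an unadjusted p under 0.05 and 0 lower, beside 3.58% and 2.33% of all genes, and the median change was 0.25 against -0.02. Nes and Hopx lay below the filter. In this bulk tissue, more cells of a type and more RNA per cell cannot be told apart. Sox2, a transcription factor of neural progenitors, read 7.87, 7.76 and 7.53 on the GS arrays and 6.98, 7.24 and 7.06 on the Control arrays, with no overlap. Its difference was 0.63 ± 0.135 (unadjusted p = 0.000716, adjusted p = 0.635).

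Slc1a3, the glutamate transporter GLAST of radial glia and astrocytes, read 8.62, 8.70 and 8.36 against 7.97, 7.80 and 7.57, and was 0.78 ± 0.164 higher (adjusted p = 0.635). Vim, an intermediate filament of radial glia, read 9.08, 8.89 and 8.76 against 8.11, 8.29 and 8.14, and was 0.73 ± 0.181 higher (adjusted p = 0.645). In both, every GS array was above every Control array. Dbi, a lipid-binding protein of progenitors, differed by 0.60 ± 0.219. The Notch targets in the list, Hes1 at -0.15 and Hes5 at -0.02, did not pass, and neither did Fabp7 at 0.13. Over all genes tested, 6584 of 14195 differences were positive. The astrocyte list had 6 of 11 tested members with a positive difference and a median of 0.01, with 1 member, Cst3, higher at an unadjusted p under 0.05 (0.66). Its members Sparcl1 and Gja1 differed by 0.74 and 0.50, and Gfap and Aqp4 by -0.01 and -0.08.

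Both progenitor lists kept their direction when the model was changed. The median of the mitosis list ran from 0.31 to 0.59 over the 25 alternatives, and that of the radial glia list from 0.10 to 0.41. When GS replicate 3, Control replicate 3 and GB replicate 2 were all left out, 3 of 22 mitosis genes (Kif11, Mki67 and Top2a) and 4 of 15 radial glia genes (Slc1a3, Sox2, Vim and Dbi) were called higher, beside 9.86% of all genes tested. The mitosis count in that fit was near the share of all genes. With the replicate number as a block in the 6 arrays, an alternative chosen after seeing the data, 13 mitosis genes and 6 radial glia genes were called higher, beside 13.1% of all genes.

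**Figure D3:**
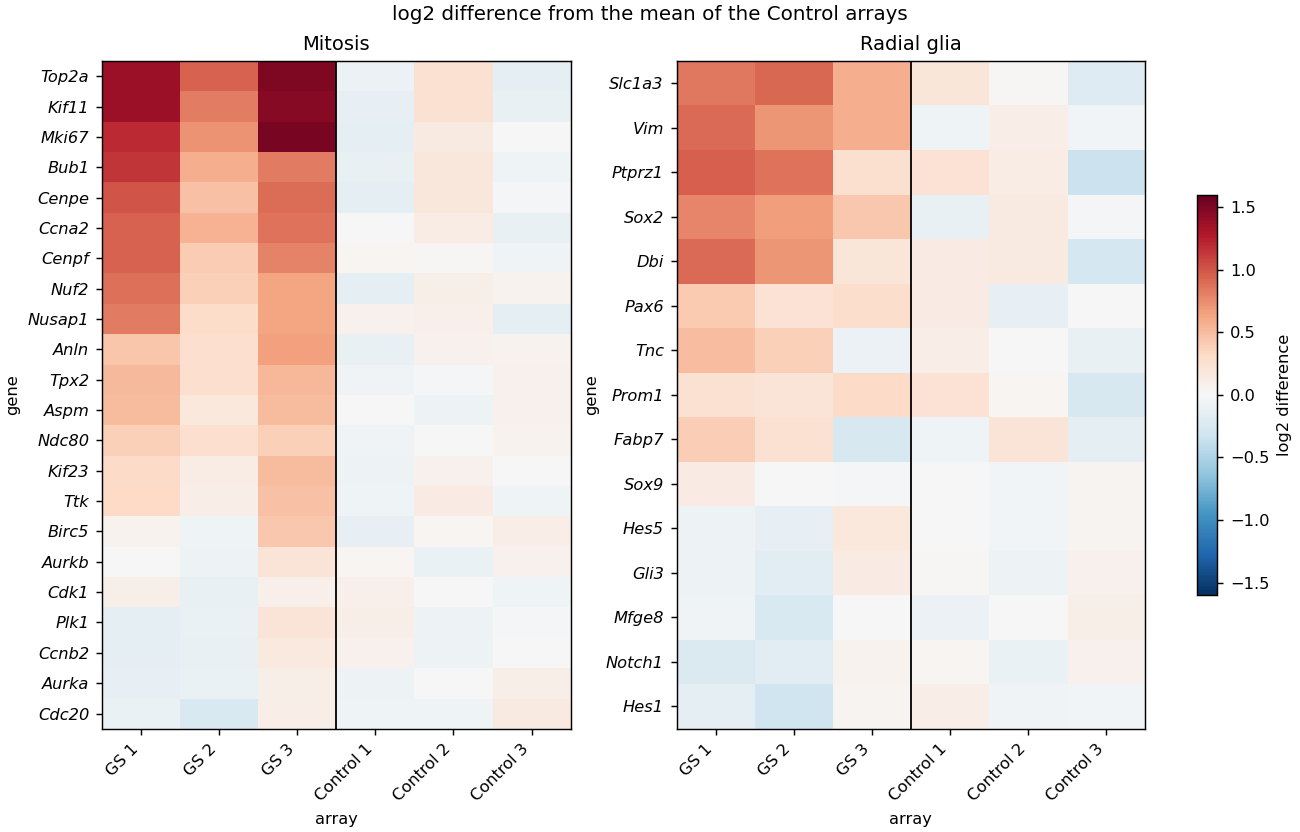
log2 difference of each GS and Control array (x axis) from the mean of the Control arrays for all tested members of the mitosis and radial glia lists (y axis), ordered by the mean difference and coloured from blue (lower) to red (higher). The mitosis genes at the top are high on all 3 GS arrays, with GS replicate 3 often the highest, whereas Slc1a3, Vim, Ptprz1, Sox2 and Dbi are lowest of the GS arrays on GS replicate 3.

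Of 9 tested genes of intermediate progenitors, the dividing cells between radial glia and neurons, 0 were higher and 1 was lower at an unadjusted p under 0.05, which was Hes6 at -0.24 ± 0.101, and the median change was 0.00. Of all genes tested, 3.58% were higher and 2.33% lower at that p. The ventral patterning list, where hedgehog signalling acts in the embryo, had a median of -0.01 over 18 tested genes. The 2 members at an unadjusted p under 0.05 were Dlx6 and Dlx1, transcription factors of the ventral lineage that gives inhibitory neurons. Both were higher, beside 3.58% of all genes. Dlx6 read 8.81, 9.15 and 8.87 on the GS arrays and 8.37, 8.57 and 7.98 on the Control arrays, a difference of 0.64 ± 0.204. Dlx1 read 7.78, 8.23 and 8.37 against 7.69, 7.71 and 7.60, a difference of 0.46 ± 0.162, with GS replicate 1 close to the Control arrays. Their adjusted p was 0.645 each.

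In the dorsal patterning list (16 tested, median 0.12) the gene with the lowest p was Neurod1, a factor of excitatory neuron differentiation, at 0.79 ± 0.313. Emx1, a cortical factor, differed by -0.23. Prox1, a transcription factor of dentate granule cells, thalamus and interneurons, read 7.66, 7.52 and 7.17 on the GS arrays and 6.61, 6.32 and 6.19 on the Control arrays. The groups did not overlap, and the difference was 1.07 ± 0.248 (unadjusted p = 0.00123, adjusted p = 0.645). Without GB replicate 2, 4 genes were called, with Prox1 added to the other 3.

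Among the 10 largest positive differences with arrays that did not overlap were also Fv1, a retroviral restriction gene, at 1.10 ± 0.269, Scrg1, a small secreted protein, at 1.03 ± 0.250, and Nrp1, a semaphorin and growth factor receptor of axons and vessels, at 1.01 ± 0.288. Each had an adjusted p of 0.645. Scrg1 read 7.46, 7.26 and 6.38 on the GS arrays and 6.19, 6.05 and 5.76 on the Control arrays, so GS replicate 3 lay near the Controls. Igf1r, the receptor of insulin-like growth factors, was 0.48 ± 0.146 higher and Lin28a, an RNA-binding protein of early progenitors, lower by 0.32 on average (-0.32 ± 0.121).

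Ctnnb1 encodes beta-catenin. It read 8.85, 8.76 and 8.41 on the GS arrays and 8.13, 8.22 and 7.89 on the Control arrays. All GS arrays were above the Control arrays, which carry the floxed Ctnnb1 allele. The difference was 0.60 ± 0.199 (unadjusted p = 0.0123, adjusted p = 0.645). Of 15 tested WNT target genes 1 had a positive difference, beside 6584 of all 14195 genes tested. The median of the list was -0.10. Axin2, the standard WNT readout, differed by 0.03 ± 0.124 and Lef1 by -0.13 ± 0.170. The 1 target below an unadjusted p of 0.05 was Notum, a WNT inhibitor, at -0.22 ± 0.101.

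Several groups were higher on GS replicates 1 and 2 and not on GS replicate 3. Cholesterol synthesis genes (16 tested) had a median change of 0.35, with array medians of 0.59, 0.52 and -0.02 in GS and -0.12 to 0.08 in Control. Msmo1, a sterol oxidase, read 7.46, 7.37 and 6.69 on the GS arrays and 6.38, 6.4 and 6.52 on the Control arrays, and Idi1, an isoprenoid isomerase, read 6.96, 7.05 and 6.26 against 6.18, 6.07 and 5.94. GS replicate 3 lay just above the Controls in both. The differences were 0.74 ± 0.194 and 0.70 ± 0.219.

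Primary cilium genes, of interest because Smoothened signals there, had a median of 0.18 over 20 tested. At an unadjusted p under 0.05, beside 3.58% of all genes, 3 of the 20 were higher. These were Cc2d2a at 0.34 ± 0.117, Rpgrip1l at 0.54 ± 0.190 and Bbs9 at 0.43 ± 0.155, which serve the base of the cilium or its cargo traffic. The array medians of the list were 0.29, 0.27 and 0.04 in GS and -0.04 to 0.04 in Control. Postmitotic neuron genes had a median of 0.23 over 15 tested, with array medians of 0.44, 0.47 and -0.12 in GS, and glutamate and GABA receptor genes one of 0.31, with 0.63, 0.75 and -0.50.

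Chromatin and DNA methylation enzymes (18 tested, median 0.32) had 2 members higher at an unadjusted p under 0.05, beside 3.58% of all genes, and 9 with all GS arrays above all Control arrays, beside 8.09%. Chd7, a chromatin remodeller of neural progenitors, read 8.99, 8.99 and 9.0 on the GS arrays and 8.46, 8.47 and 8.23 on the Control arrays, a difference of 0.61 ± 0.265. Kmt2d, a histone methyltransferase, differed by 0.35 ± 0.150. Splicing factors (21 tested, median 0.31) had 1 such member, Tra2a, at 0.87 ± 0.334. Their medians on the arrays were 0.42, 0.44 and 0.13 in GS and 0.11, 0.14 and -0.27 in Control.

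Changes over all genes varied with level. In the brightest of 4 equal groups of genes by mean level the median change was 0.19, and in the dimmest it was -0.08. On GS replicates 1 and 2 the brightest group lay 0.35 and 0.33 above the Control mean, on GS replicate 3 at -0.03, and on Control replicate 3 at -0.14. Of the 21 splicing factors 18 were in the brightest group, as were 11 of the 18 chromatin enzymes, 11 of the 15 postmitotic neuron genes and 7 of the 15 radial glia genes, but 3 of the 22 mitosis genes. The mitosis list had 8 members in the dimmest group, whose overall median was negative. Of the 20 primary cilium genes 2 were in the brightest group and 7 in the dimmest, and of the 16 cholesterol synthesis genes 6 and 3. With the level of silent receptor genes as a covariate, the median was 0.04 for cholesterol synthesis genes and 0.06 for primary cilium genes. It was 0.07 for chromatin enzymes, -0.11 for splicing factors, -0.10 for postmitotic neuron genes and -0.27 for glutamate and GABA receptor genes. The mitosis list was then at 0.40 and the radial glia list at 0.10.

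**Figure D4:**
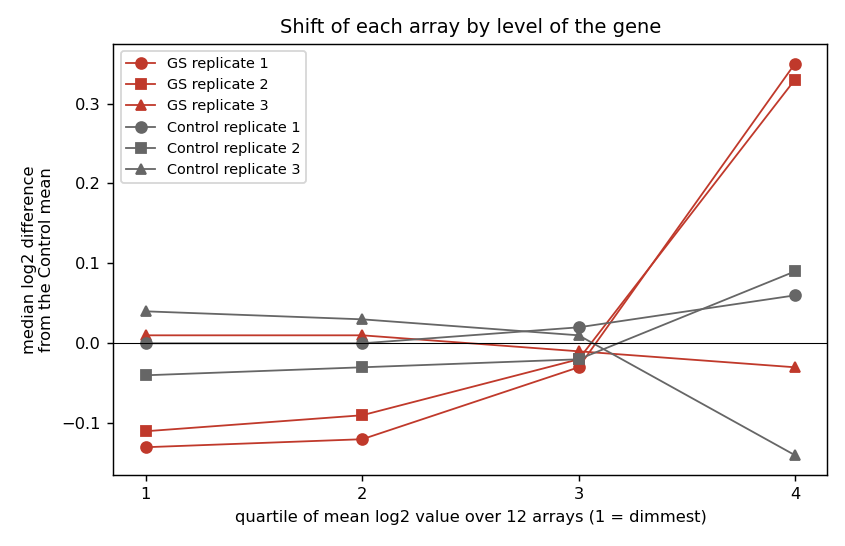
Median log2 difference from the mean of the Control arrays (y axis) for all tested genes in 4 equal groups by mean log2 value over the 12 arrays (x axis), with 1 line per GS and Control array. GS replicates 1 and 2 reach 0.35 and 0.33 in the brightest group, GS replicate 3 stays at -0.03, and Control replicate 3 is at -0.14.

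Over the 51 lists, the array medians of GS lay above those of Control on all 3 arrays in 6. These were mitosis, radial glia, D-type cyclins and their kinases, chromatin enzymes, astrocytes and genes that escape X inactivation. The escape genes are read beside the sex of the samples, which differed between the genotypes. Their median was 0.55 on the male GS replicate 1, and 0.71 and 0.27 on the female GS replicates 2 and 3. The median change of this list was 0.48, against 0.73 with sex as a covariate and 0.17 with the level of silent receptor genes. The cause of this difference was not tested. In the astrocyte list the margin was small, with GS medians of 0.03 to 0.05 and Control medians of -0.05 to -0.02. In 1 list, cortical hem and choroid plexus genes, all GS medians lay below. For comparison, GS lay above on all arrays in 8.09% of single genes and below in 9.43%. Whether more lists stood apart than such a share would give was not tested. In 10 lists GS replicates 1 and 2 were above all Controls and GS replicate 3 was not.

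**Figure D5:**
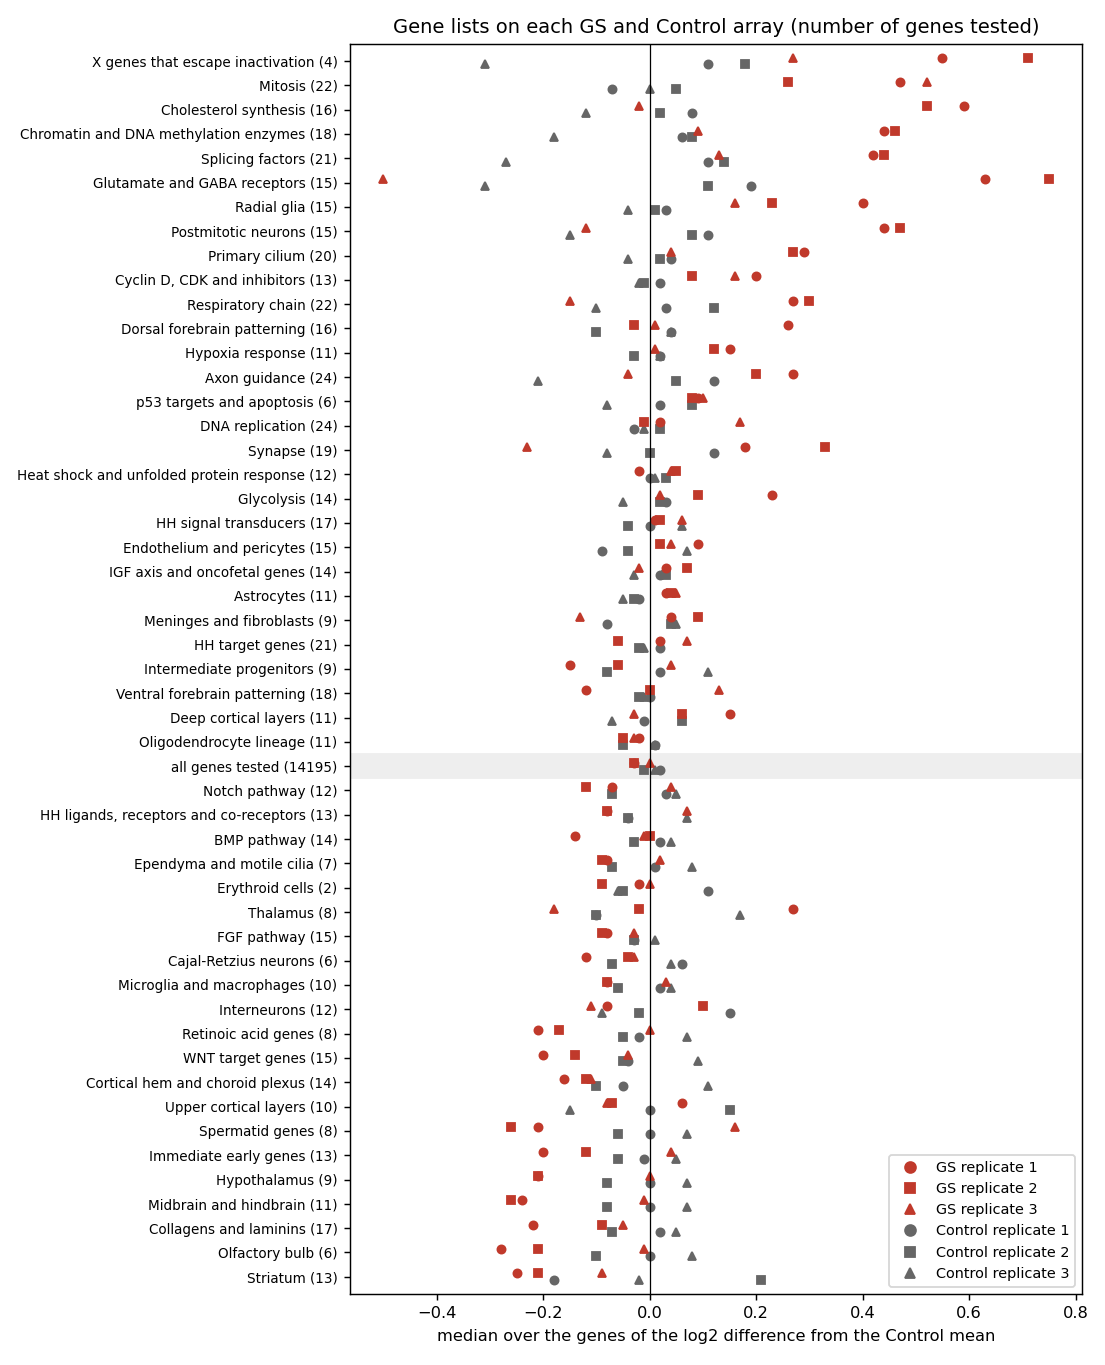
Median over the members of each gene list of the log2 difference from the Control mean (x axis), for each GS and Control array, with lists on the y axis ordered by the change and the number of genes tested in brackets. The list of sex-linked genes is left out for scale. Mitosis and radial glia are among the lists whose 3 GS points lie right of all Control points, and in the glutamate and GABA receptor list GS replicate 3 is at -0.50 while the other GS arrays are at 0.63 and 0.75.

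Lower values were smaller and more scattered. No gene was called lower, and 331 were lower at an unadjusted p under 0.05. The largest of those with arrays that did not overlap was Rdh7, a retinol dehydrogenase family gene, which read 5.80, 6.23 and 5.88 on the GS arrays and 6.73, 6.48 and 6.57 on the Control arrays. All GS arrays were below the Controls, and the difference was -0.62 ± 0.171 (unadjusted p = 0.00386, adjusted p = 0.645). The next 9 were Eif4e1b, Tns1, Golt1a, Oas1a, Ripk4, S100a13, Bsnd, Tmem132b and Upk3bl, at -0.52 to -0.40. Among them, Bsnd encodes a chloride channel subunit of the kidney and inner ear, and Ripk4 a kinase of the skin.

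Among neuron lists, the olfactory bulb genes Cdhr1, a cadherin of projection neurons, and Th, the dopamine synthesis enzyme, differed by -0.30 ± 0.0946 and -0.32 ± 0.109. They were 2 of 6 tested genes of the olfactory bulb list, whose median was -0.17, and Eomes (0.15) and Sp8 (0.01) had positive differences. With the level of silent receptor genes as a covariate the list's median was 0.00. Both Cdhr1 and Th had GS arrays wholly below the Control arrays (Cdhr1 at 6.02, 6.06 and 6.18 against 6.38, 6.29 and 6.48). The striatal dopamine receptor gene Drd1 differed by -0.35 ± 0.142. Of the 13 tested striatal genes 1 had a positive difference, beside 6584 of all 14195 genes tested. The median of the striatal list was -0.18. It was -0.20 with the level of silent receptor genes as a covariate and -0.34 with sex as a covariate. Families of genes silent in brain showed shifts of similar size. Of 207 tested olfactory and vomeronasal receptor genes, 21 were lower and 0 higher at an unadjusted p under 0.05, beside 2.33% and 3.58% of all genes, with a median of -0.22. Their array medians were -0.38, -0.29 and 0.02 in GS and -0.06 to 0.10 in Control. Keratin-associated protein genes had a median of -0.22, and ribosomal protein genes one of 0.23. Whether this level-linked shift contributes to the low neuron genes was not tested.

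Without GS replicate 3, Control replicate 3 and GB replicate 2, 1400 genes (9.86%) were called higher and 314 (2.21%) lower. With the replicate number as a block in the 6 arrays of GS and Control, 1853 (13.1%) were called higher and 335 (2.36%) lower. The 1208 genes called in both had the same direction in each, and made up 70.5% of the first set and 55.2% of the second. Both fits used the GS and Control arrays that were not left out, so the shared direction is not independent support. With the block in all 12 arrays 2 genes were called higher and 0 lower. In the blocked fit of 6 arrays the called members numbered 15 of 21 splicing factors, 10 of 18 chromatin enzymes, 9 of 16 cholesterol synthesis genes and 6 of 20 primary cilium genes, all higher, beside 13.1% of all genes. Of the hedgehog target genes 4 of 21 were called there, a share not far above the 13.1% of all genes. They were Ptch1, which was called in every fit, and Hhip, Mtss1 and Ccnd2 (adjusted p = 0.0131, 0.0299 and 0.0353). With the block in 12 arrays Hhip, Mtss1 and Ccnd2 each had an adjusted p of 0.738. Cdk6, Prox1, Ctnnb1, Dlx6 and Rdh7 were also called in the blocked fit of 6 arrays (adjusted p = 0.00221, 0.000505, 0.00455, 0.00595 and 0.0106). The count of calls beyond Ptch1 and Prm1 thus rested on the arrays and error term used.

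The difference of GS from the other genotypes was tested directly. Against GB, which carries Cre and the Ctnnb1 allele but no SmoM2, 2 genes were called, 0.0141% of those tested, with 1 in each direction (0.00704% each). Ptch1 was 1.43 ± 0.118 higher in GS (adjusted p = 0.00162), with GB arrays at 6.96, 7.12 and 7.28. The other was Nhlh1, a factor of newborn neurons named here after its value was seen, with arrays at 5.95, 6.17 and 6.31 in GS and 7.74, 7.54 and 7.63 in GB (-1.5 ± 0.174, adjusted p = 0.025). The Control arrays of Nhlh1 read 6.31, 6.25 and 6.33, near those of GS. Its difference in GS against Control was -0.15 (adjusted p = 0.687). The GB arrays lay above the Control arrays, and so did the GBS arrays, at 8.02, 8.84 and 8.34. Nhlh1 was not called in GB against Control, where 0 genes were. Prm1 differed between GS and GB by 0.83 (adjusted p = 0.478) and Gm10561 by 1.38 (adjusted p = 0.0801), so neither difference was called.

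Between GBS and GS, 720 genes (5.07%) were called, 505 higher (3.56%) and 215 lower (1.51%) in GBS. Ptch1 was 0.96 ± 0.118 higher in GBS (adjusted p = 0.00119), with GBS arrays at 9.40, 9.74 and 9.38, all above the GS arrays. Prm1 was lower in GBS by 0.91 (-0.91, adjusted p = 0.0283). Mki67, Top2a and Kif11 were higher in GBS than in GS by 1.22, 1.37 and 1.29 (adjusted p = 0.0202, 0.0231 and 0.00963). These calls held under 16, 15 and 22 of 23 alternatives, with adjusted p-values of up to 0.137, 0.174 and 0.0896. Gli2 and Gli3, which were not called in GS against Control, were 0.42 and 0.81 higher in GBS than in GS (adjusted p = 0.0178 and 0.00135), and Axin2 and Lef1 were 1.74 and 2.39 higher. The call of Prm1 held under 18 of 23 alternatives and that of Gli2 under 16 of 22, while Ptch1, Gli3, Axin2 and Lef1 were called under all 23. Hhip did not differ beyond its error, at 0.01, and neither did Gm10561, at 0.43 (adjusted p = 0.272).

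Set beside Control, whose arrays these comparisons share, Ptch1 was 1.43 higher in GS, 0.00 different in GB and 2.38 higher in GBS. Mki67 was 1.15, 0.25 and 2.37 higher, and Prox1 1.07, 0.73 and 2.35 higher. At an adjusted p under 0.05, 0 genes (0.0%) were called by limma in GB against Control, where 129 stood higher and 27 lower for unadjusted p below 0.05, and 2173 (15.3%) in GBS against Control, of which 617 (4.35%) were lower.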

How the data were processed

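RNA from 12 newborn forebrain samples was hybridised to Affymetrix Mouse Gene 1.0 ST arrays. Per the submitters' processing notes, the authors used RMA and Affymetrix Expression Console. The deposited values range from 2.82 to 13.83 and were taken as log2 from that range. The sources used here do not give software versions or the probe set annotation. No depth applies to arrays, so their number limits the precision.

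Of 35556 probe sets, 21789 had 1 gene symbol in the platform annotation, 1621 had several and 12146 were not listed. Symbols were updated through RefSeq (GRCm38.p6), which held 21698 of them. Each of 19938 genes was read from its probe set with the highest mean over 12 arrays, and 14195 genes above the 40th percentile of their array in at least 3 arrays were tested. Probe sets with several symbols or none were tested separately (7691 tested, 0 called by limma, 536 at an unadjusted p under 0.05).

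One limma 3.58.1 model (R 4.3.3), with 1 mean for each genotype, covered all 12 arrays with 8 residual and 2.9 prior degrees of freedom. All tests were two-sided, with Benjamini-Hochberg adjustment over all genes tested, and the script was tested on simulated data. Lists are described by counts and medians only. The choice of the comparison, the members, the 51 lists and the 10 gene families was made with earlier results of these data known. Named genes are Smo, Ptch1, Gli1 to Gli3, Hhip, Boc, Cdon, Gas1, Ccnd1, Ccnd2, Mycn, Ctnnb1, Axin2, Lef1, Lin28a, Mki67 and Prm1, every called gene, the 10 largest changes each way at an unadjusted p under 0.05 without overlap, and up to 4 members of each list by lowest p with members that went against it. Clone names, predicted genes, small RNAs, receptor families and sex genes were left out of the largest changes. Other members were named to show flat values, after these were seen. Another gene named by the rule is not reported here.

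Deviations from the group means of same-numbered GS and Control arrays correlated at 0.337, 0.426 and 0.739. However, GS replicate 1 correlated better with Control replicate 2 (0.557), and GS replicate 2 correlated at 0.381 with Control replicate 1. A match by number was therefore clear only for replicate 3. The labels do not say what the numbers share. Alternatives were other filters, probe set means, quantile normalization, centring, trend and robust settings, array weights, the 6 arrays alone, the replicate block, sex, the level of silent receptor genes, and leaving out arrays.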

Additional observations from a re-analysis of the deposited data

How the results depend on the processing

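Ptch1 kept its direction and call under all 25 alternatives, in GS against Control and, under the 23 alternatives that hold all genotypes, against GB and GBS. The counts at an adjusted p under 0.05 moved from 3 higher and 0 lower to 1853 and 335 with the replicate block in the 6 arrays (an alternative chosen after seeing the data), to 1400 and 314 without GS replicate 3, Control replicate 3 and GB replicate 2, and to 4203 and 4084 with array weights, where GS replicate 2 had a weight of 10.89 and GS replicate 3 of 0.21, so that count rests mainly on 1 array. With 1 array left out it was 2 to 4 higher and 0 lower. For unadjusted p below 0.05, with 508 higher and 331 lower, the lower count was 588 with no filter on dim genes, 165 with the filter at the 60th percentile and 168 with the replicate block in 12 arrays. Both counts moved to 1161 and 658 in the 6 arrays alone, 984 and 1224 with sex as a covariate, 3113 and 1790 with the replicate block in the 6 arrays, 3030 and 1988 without the 3 arrays, and 4511 and 4575 with array weights. With 1 array left out they ran from 161 to 1506 higher and from 68 to 1115 lower, lowest without GS replicate 1 and highest without GB replicate 2 or GS replicate 3. The causes were not tested. Genes without overlap, 2488 in all, numbered 1653 at the 60th percentile, 10375 without the 3 arrays, and 2799 to 9900 with 1 array left out, where fewer arrays make separation easier.

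Genes near 0 changed sign. With the receptor-gene level as a covariate, Boc was 0.03, Gas1 0.03, Shh 0.07, Gli1 0.05, Gli2 0.00, Ccnd1 0.04 and Axin2 -0.08. Cdon was 0.02 with sex as a covariate. With centring Gas1 was 0.01 and Ccnd1 0.04, and with quantile normalization Ccnd1 was 0.02. Lef1 was 0.03 with array weights and 0.05 without GS replicate 3, Control replicate 3 and GB replicate 2, where Axin2 was 0.14. With 1 array left out, Gas1 ran from -0.12 to 0.05, Gli3 from -0.14 to 0.02, Ccnd1 from -0.03 to 0.03, Axin2 from 0.00 to 0.09, Lef1 from -0.20 to 0.01, and Hhip in GBS against GS from -0.07 to 0.10. The median of the splicing list ran from -0.11 to 0.65 over the alternatives.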
